A study of Homo sapiens with 10 samples.

Results

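The genes described here encode 6 dual-specificity phosphatases (DUSP1, DUSP2, DUSP4, DUSP5, DUSP6 and DUSP10), 2 Sprouty proteins (SPRY1 and SPRY2) and 2 Spred proteins (SPRED1 and SPRED2). They were taken by symbol, as a set named with earlier results of these data known, and all 10 were found among the 54628 gene symbols of the table. They were measured in NK-92, an established human natural killer cell lymphoma line. The 5 groups of 2 libraries each were cells given 500 µM deferoxamine (DFO) for 6 h or 24 h, cells given 10 µg/mL of PPMX-T003 (called T003 below) for 6 h or 24 h, and untreated cells taken at 0 h. DFO is an iron chelator, and T003 is an antibody against transferrin receptor 1, which carries transferrin-bound iron into cells. All cells shared the same line and a medium with 2% human serum. Because the untreated libraries were taken at 0 h, time in culture and agent cannot be told apart in a comparison of 24 h with untreated cells.

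Mitogen-activated protein kinases (MAPKs) are the last kinases of cascades that run from RAS through RAF and MEK to ERK, or through parallel branches to JNK and p38. They are switched on by phosphorylation of a threonine and a tyrosine, and dual-specificity phosphatases remove both phosphates. Sprouty and Spred proteins act further upstream, at RAS and RAF, and SPRED1 brings the RAS inhibitor neurofibromin to the membrane. Many of these genes are themselves transcribed when ERK is active and so form a negative feedback. Lymphocytes use these cascades below their cytokine and activating receptors.

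The results turn on 3 genes that were higher with both agents at 24 h, DUSP5, DUSP6 and SPRED1, and on DUSP10 and SPRED2, which passed the test with T003. Promoter sequence was read for the genes from RefSeq entries of GRCh38.p14 that run from 250 bases before to 50 bases after a gene start. Such entries were read for 8 of the 10 genes, 13 in all. DUSP4 and DUSP5 are named without sequence, and the counts of entries and matches do not cover them. Shown are the promoters of DUSP6 (chr12:89352452-89352751, minus strand) and SPRED1 (chr15:38252586-38252885, plus strand), because both genes rose with either agent. Beside them stand the upstream promoter of DUSP10 (chr1:221742040-221742339, minus strand), a gene called with T003, and that of DUSP1 (chr5:172771146-172771445, minus strand), a gene with no call. Each is written 5′ to 3′ on the strand of the gene in lower case, and capitals mark a match to one of the 6 motifs searched.
DUSP6: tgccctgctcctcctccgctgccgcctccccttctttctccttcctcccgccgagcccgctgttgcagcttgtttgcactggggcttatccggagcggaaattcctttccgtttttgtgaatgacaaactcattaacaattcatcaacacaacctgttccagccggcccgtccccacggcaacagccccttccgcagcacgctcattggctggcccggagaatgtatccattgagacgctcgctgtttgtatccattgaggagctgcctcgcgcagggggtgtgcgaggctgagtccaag
SPRED1: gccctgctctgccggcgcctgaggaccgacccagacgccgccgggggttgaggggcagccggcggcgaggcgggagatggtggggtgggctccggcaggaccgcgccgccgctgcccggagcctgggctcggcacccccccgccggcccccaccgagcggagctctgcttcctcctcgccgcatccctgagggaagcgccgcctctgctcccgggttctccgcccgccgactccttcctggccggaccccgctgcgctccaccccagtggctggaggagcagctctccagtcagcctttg
DUSP10: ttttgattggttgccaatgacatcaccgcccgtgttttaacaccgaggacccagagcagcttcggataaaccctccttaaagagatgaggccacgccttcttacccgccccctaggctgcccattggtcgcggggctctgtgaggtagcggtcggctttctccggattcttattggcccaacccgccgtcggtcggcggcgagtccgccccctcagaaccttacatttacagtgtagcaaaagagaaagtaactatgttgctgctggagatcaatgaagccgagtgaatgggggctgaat
DUSP1: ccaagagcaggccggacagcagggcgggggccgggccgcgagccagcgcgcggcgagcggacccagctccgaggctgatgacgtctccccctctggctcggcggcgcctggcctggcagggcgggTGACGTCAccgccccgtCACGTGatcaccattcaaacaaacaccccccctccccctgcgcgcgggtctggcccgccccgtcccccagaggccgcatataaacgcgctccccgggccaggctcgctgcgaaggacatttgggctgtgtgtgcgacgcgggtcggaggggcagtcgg

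The motifs were searched on both strands. They were CCGGAAG for ETS factors, TGANTCA for AP-1, TGACGTCA for the cyclic AMP response element, TTCNNNGAA for STAT factors, CACGTG for the E-box, and the CArG box of serum response factor. The DUSP1 promoter held TGACGTCA, which 1.85% of all 35116 promoters of this length hold, and CACGTG, which 7.26% hold, and these matches do not overlap. No letters of the 6 motifs were found in the DUSP6, SPRED1 and DUSP10 stretches shown. In all, 4 of the 13 entries read had a match. The other matches were CACGTG in DUSP2, a pair of AP-1 motifs (7.71% of all promoters) in the downstream promoter of SPRED2, and an ETS motif (10.3%) and a STAT motif (7.66%) in the downstream promoter of SPRY1. The CArG box was in none of the 13 and in 1.29% of all promoters. The G and C content was 58.3% for DUSP6, 76.3% for SPRED1, 55.0% for the DUSP10 stretch and 73.3% for DUSP1, against a median of 58.7% over all promoters. A match describes the letters of these windows and not binding.

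Library totals ran from 107117892 to 143575614 estimated counts. Levels are given in CPM, a count scaled to the size of its library and to the other libraries, and n = 2 libraries in every group. The transferrin receptor gene TFRC, used as a check of the treatments, had 834 and 833 CPM after 24 h of DFO and 845 and 847 CPM after 24 h of T003, against 177 and 165 CPM in untreated cells. All 8 markers of NK-92 were detected, with a summed level of 2978 to 3000 CPM after DFO and 3190 to 3229 CPM after T003 at 24 h, against 2837 to 2872 CPM in untreated cells. Of these markers IL2RB, the interleukin 2 receptor beta chain, rose to 1185 CPM with DFO and 1305 CPM with T003 at 24 h, against 1033 CPM in untreated cells (edgeR adjusted p = 0.00148 with DFO and 3.35e-05 with T003). Its part in the levels below was not tested. KLRD1, the gene of CD94, fell to 39.97 CPM with DFO and 42.5 CPM with T003, against 49.9 CPM in untreated cells (edgeR adjusted p = 0.000452 for DFO and 0.00204 for T003). Among 6 T cell genes, CD3E, which natural killer lines also transcribe, stood at 435 CPM and TRAC at 16.3 CPM in untreated cells, while CD3G was at 0 in the untreated and 24 h libraries. Of the defining markers of other cells, 3 of 4 for B cells, 3 of 4 for epithelium and 2 of 3 for erythroid cells were at 0 in every library. The 5 myeloid genes summed to 0.326 to 0.648 CPM after DFO and 0.560 to 0.608 CPM after T003 at 24 h, against 0.612 to 0.773 CPM in untreated cells.

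Per kilobase of transcript (GENCODE v44 canonical transcripts), the family covered a wide range in untreated cells. DUSP5, a nuclear phosphatase specific for ERK, was highest at 88.7 CPM per kilobase. DUSP2, a nuclear phosphatase known from blood cells, followed at 27.7, and SPRY1 at 10.1 CPM per kilobase. SPRED2, DUSP10 and DUSP6 lay close together at 4.72, 4.63 and 4.20, SPRED1 had 2.75 and DUSP1 1.98 CPM per kilobase. DUSP4 had 0.0347 CPM per kilobase. SPRY2 had 0 counts in all 10 libraries, which allows up to 3 counts, or 0.0209 to 0.0278 CPM, per library (counting error only). DUSP5 stayed the highest at 24 h, at 99.8 CPM per kilobase with DFO and 119.8 with T003. DUSP6 stood at 6.97 with DFO and 6.73 CPM per kilobase with T003 at 24 h, then above SPRED2 and DUSP10 in both groups.

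**Figure D1:**
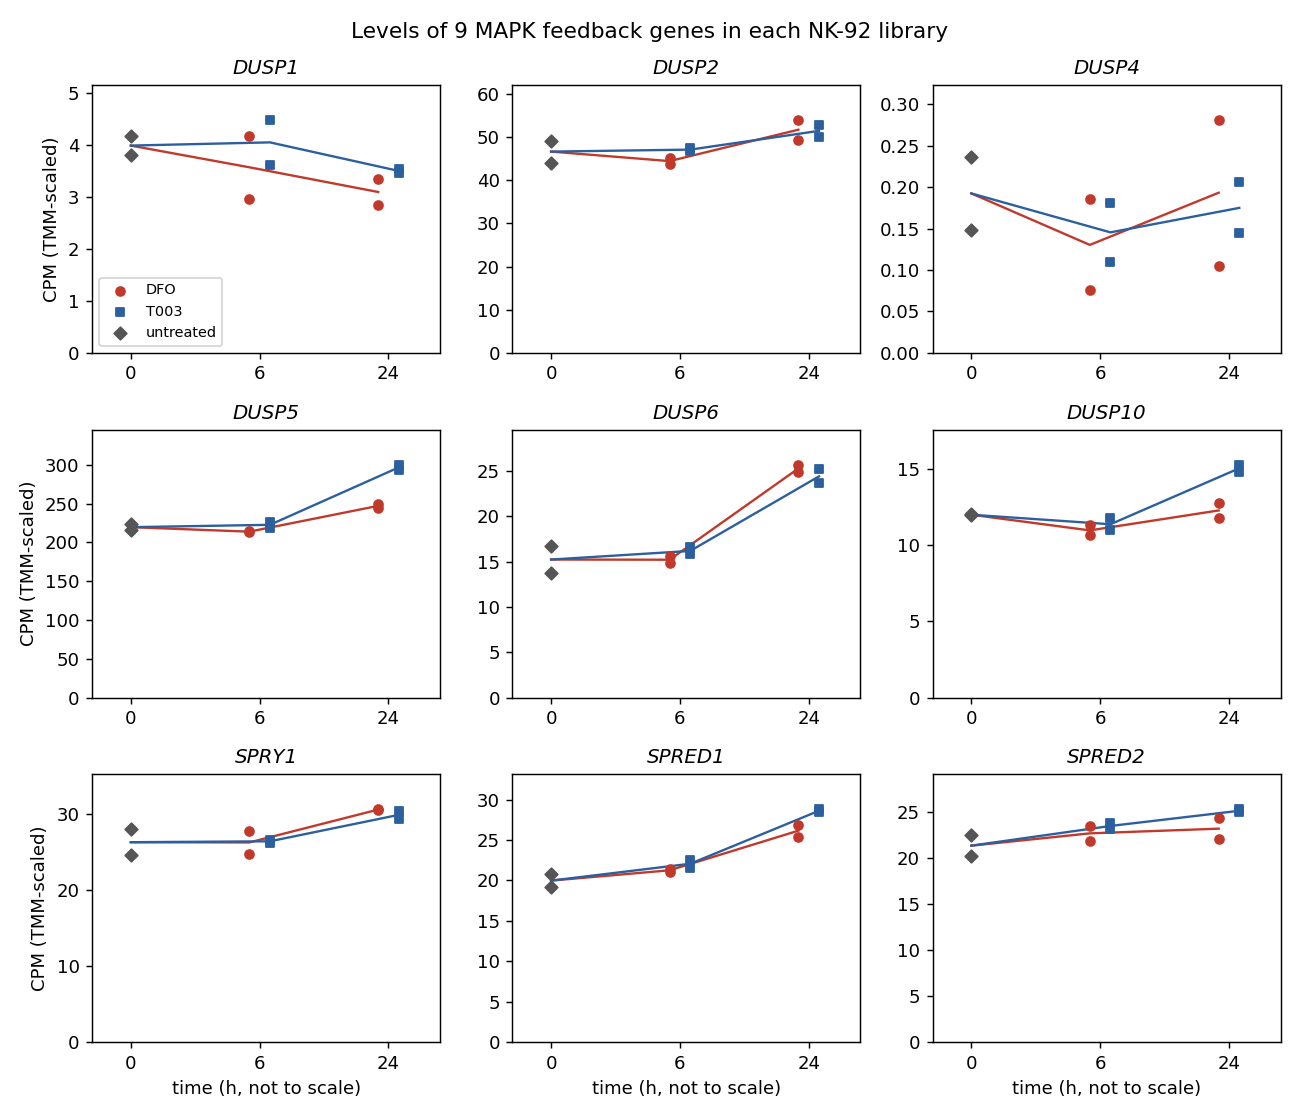
Level in CPM of the 9 members with counts (SPRY2 is left out) by hours after treatment, each point 1 library (n = 2 per group), for DFO, T003 and untreated cells, with lines through the group means and time not to scale. At 24 h the libraries of DUSP2, DUSP5, DUSP6, SPRY1 and SPRED1 all lie above the untreated ones with both agents. Those of DUSP10 and SPRED2 do so with T003 alone. DUSP6 is at 24.9 and 25.7 CPM with DFO and 23.7 and 25.2 CPM with T003, against 16.7 and 13.8 CPM. Of all tested genes, 24.2% lie above in this way with DFO and 25.9% with T003.

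At 24 h, 3 members rose with DFO and 5 rose with T003 against untreated cells, and none fell. A gene was called at an adjusted p under 0.05 in edgeR's quasi-likelihood test with Benjamini-Hochberg adjustment over the 20125 genes tested, which included all members except SPRY2. With DFO, 3 of 9 members tested (33.3%) were called higher, where 3.43% of all tested genes were called higher and 6.7% in either direction. With T003, 5 of 9 (55.6%) were called higher, where 7.1% of all genes were called higher and 12.5% in either direction. The T003 count was 3 without untreated replicate 2 or without T003 24 h replicate 1. In bulk RNA, a change in the share of cells that carry a transcript and a change per cell cannot be told apart. The median log2 fold change of the 9 members was 0.15 with DFO, against 0.00 over all genes, and 0.24 with T003, against -0.01 over all genes. Both comparisons use the same untreated libraries. In these, replicate 1 was above replicate 2 in 7 of 9 members, and in 49.8% of all tested genes.

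DUSP6, the cytoplasmic phosphatase that acts on ERK, showed the largest called changes of the family. It lies on chromosome 12 (89347235 to 89352501, hg38, minus strand). DUSP6 had 24.9 and 25.7 CPM after 24 h of DFO and 23.7 and 25.2 CPM after 24 h of T003, against 16.7 and 13.8 CPM in untreated cells. Every 24 h library was above every other library, and the 2 agents overlapped. DUSP6 was 1.66-fold higher with DFO (log2 0.73, SE 0.0828, edgeR adjusted p = 0.000417) and 1.60-fold higher with T003 (log2 0.68, SE 0.0828, edgeR adjusted p = 0.000446). The untreated libraries differed from each other by 0.28 on the log2 scale. RefSeq places a readthrough transcript, POC1B-DUSP6, over the gene, so some of its reads may be counted here.

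DUSP5 rose with both agents and further with T003. The gene lies on chromosome 10 (110497907 to 110511533, plus strand). DUSP5 had 245 and 249 CPM after 24 h of DFO and 293 and 300.3 CPM after 24 h of T003, against 223 and 216 CPM in untreated cells. The 3 groups did not overlap. The log2 fold change was 0.17 with DFO (SE 0.0263, edgeR adjusted p = 0.00311) and 0.43 with T003 (1.35-fold, SE 0.0263, edgeR adjusted p = 7.4e-06). The pseudogene DUSP5P1, with which reads could be shared, had 128 to 272 counts per library, against 23196 to 37513 for DUSP5.

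DUSP10, a phosphatase of JNK and p38 on chromosome 1 (221701424 to 221742089, minus strand), was called with T003. It had 12.7 and 11.8 CPM after 24 h of DFO and 15.3 and 14.8 CPM after 24 h of T003, against a mean of 12.0 ± 0.0230 CPM (SD, n = 2) in untreated cells. The T003 libraries were above all others, and the DFO libraries lay on both sides of the untreated ones. DUSP10 was 1.25-fold higher with T003 (log2 0.33, SE 0.0709, edgeR adjusted p = 0.0119), while with DFO the log2 value was 0.03 (SE 0.0710, edgeR adjusted p = 0.885). The T003 call was lost without untreated replicate 1 (edgeR adjusted p = 0.0644), untreated replicate 2 (0.0791) or T003 24 h replicate 1 (0.0926).

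The nuclear phosphatases DUSP1, DUSP2 and DUSP4 were not called at 24 h with either agent. DUSP2 (chromosome 2, 96143169 to 96145440, minus strand) had 49.4 and 54.0 CPM with DFO and 52.9 and 49.96 CPM with T003, against 49.2 and 44.1 CPM in untreated cells. The 24 h libraries all lay above the untreated ones, by a margin smaller than the difference between the untreated libraries, and the edgeR adjusted p was 0.169 with DFO and 0.148 with T003. DUSP1, an immediate-early gene (chromosome 5, 172768096 to 172771195, minus strand), had 2.84 and 3.34 CPM with DFO and 3.54 and 3.46 CPM with T003, against 3.81 and 4.16 CPM in untreated cells. It was the only tested member whose 24 h libraries were all below the untreated ones with both agents. Of all tested genes, 25.1% lay below in this way with DFO and 26.9% with T003. Its log2 values were -0.36 with DFO (95% interval -0.73 to 0.00, edgeR adjusted p = 0.268) and -0.19 with T003 (edgeR adjusted p = 0.578). DUSP4 (chromosome 8, 29333064 to 29350684, minus strand) had 13 and 38 counts with DFO and 25 and 18 counts with T003, against 34 and 19 counts in untreated cells. At that depth the 95% interval of its log2 change ran from -1.37 to 1.39 with DFO and from -1.53 to 1.25 with T003, so even a change of the size seen in DUSP6 was not detectable.

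Of the RAS-level inhibitors, SPRED1 rose with both agents. SPRED1 (chromosome 15, 38252836 to 38357249, plus strand) had 25.4 and 26.9 CPM after 24 h of DFO and 28.4 and 28.8 CPM after 24 h of T003, against 20.8 and 19.2 CPM in untreated cells. It was the only member whose 5 groups were all separate from their neighbours, in the order untreated, DFO 6 h, T003 6 h, DFO 24 h and T003 24 h. SPRED1 was not called for DFO 6 h against untreated (edgeR adjusted p = 0.556) or between agents at 6 h (0.914) or 24 h (0.322). Libraries did not overlap in 43%, 35.5% and 43.9% of all tested genes in these 3 comparisons. How many genes show the whole order was not counted. The rise of SPRED1 over untreated cells at 24 h was 1.31-fold with DFO (log2 0.39, SE 0.0554, edgeR adjusted p = 0.00185) and 1.43-fold with T003 (log2 0.52, SE 0.0554, edgeR adjusted p = 0.000189).

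SPRED2, the second Spred protein (chromosome 2, 65307175 to 65432599, minus strand), had 22.0 and 24.3 CPM with DFO and 24.9 and 25.3 CPM with T003 at 24 h, against 22.5 and 20.2 CPM in untreated cells. T003 libraries were above all others, and DFO libraries overlapped the untreated ones. The log2 change was 0.24 with T003 (SE 0.0683, edgeR adjusted p = 0.0466) and 0.12 with DFO (SE 0.0683, edgeR adjusted p = 0.405). This T003 call held in 9 of 17 alternatives. It ended when no filter was used (edgeR adjusted p = 0.0548) and without untreated replicate 2 (edgeR adjusted p = 0.324), T003 24 h replicate 1 (0.160) or T003 24 h replicate 2 (0.184), and also without DFO 6 h replicate 1 (0.0508), T003 6 h replicate 1 (0.0716) or T003 6 h replicate 2 (0.067).

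SPRY1 (chromosome 4, 123396795 to 123403760, plus strand), which restrains receptor signalling to RAS, had 30.6 CPM in both DFO libraries and 29.4 and 30.4 CPM with T003 at 24 h, against 28.0 and 24.6 CPM in untreated cells. All 4 libraries of 24 h lay above the untreated ones, but the test was not passed with DFO (log2 0.22, SE 0.0675, edgeR adjusted p = 0.0897) or T003 (log2 0.18, SE 0.0676, edgeR adjusted p = 0.111). Without untreated replicate 1 SPRY1 was called with DFO (edgeR adjusted p = 0.0342) and with T003 (0.0391), while DESeq2 called it with DFO at an adjusted p of 0.0192 and with T003 at 0.0419. SPRY2 (chromosome 13, 80335976 to 80341126, minus strand) had no counts to compare. Libraries of 24 h all above the untreated ones were found for 5 members with DFO and 7 with T003, where 24.2% of all tested genes showed this with DFO and 25.9% with T003.

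**Figure D2:**
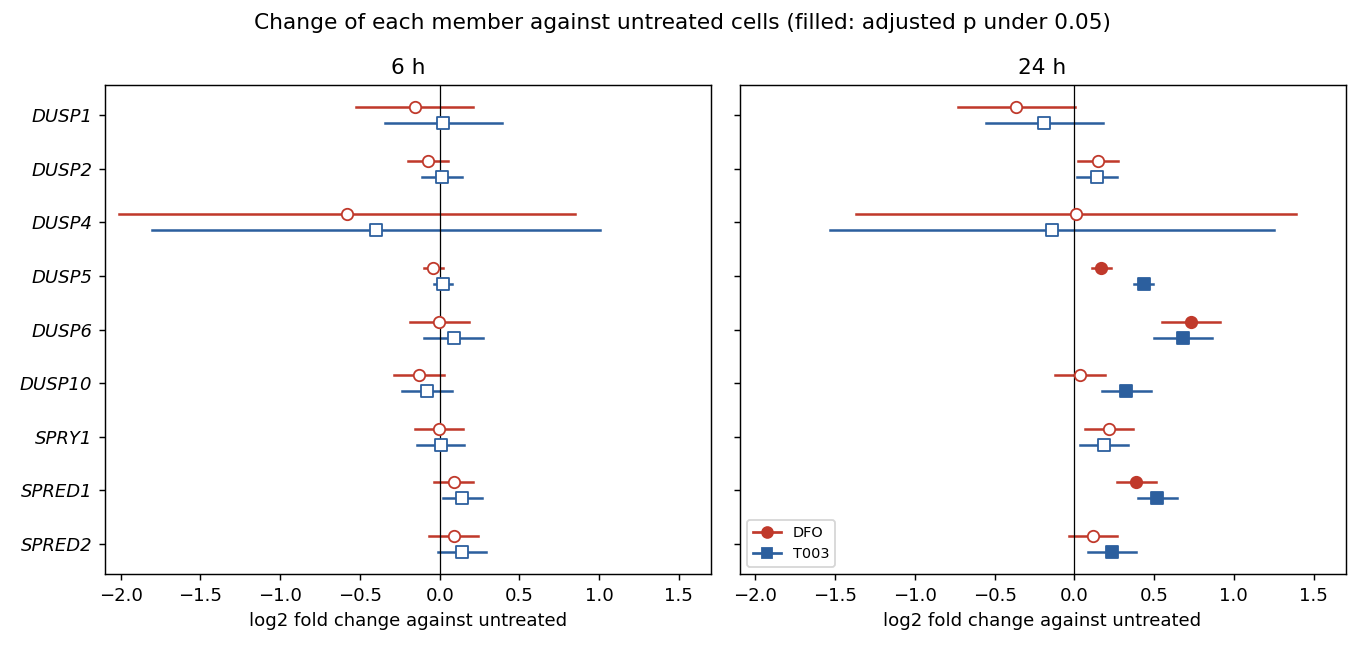
Log2 fold change of each tested member over untreated cells at 6 h (left) and 24 h (right), DFO above T003 for each gene, with lines for the 95% interval and filled points for an edgeR adjusted p under 0.05. No point is filled at 6 h, and at 24 h DUSP6 has the highest values (0.73 with DFO and 0.68 with T003) and DUSP5, DUSP6 and SPRED1 are filled for both agents.

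Set against each other at the same time of 24 h, DFO and T003 differed in DUSP5. DUSP5 was 0.833-fold in DFO cells relative to T003 cells (log2 -0.26, SE 0.0262, 95% interval -0.32 to -0.21, edgeR adjusted p = 0.00231), the only call among 9 members, where 1.34% of all genes were called and 0.884% were called lower. For DUSP10 the difference was of like size (log2 -0.29, SE 0.0709, 95% interval -0.45 to -0.14) and was not called (edgeR adjusted p = 0.0785). It was called when genes under 1 CPM were left out (edgeR adjusted p = 0.0451) and by limma-voom (adjusted p = 0.0369). DUSP6 differed by 0.05, with an interval of -0.13 to 0.23 that includes no change and small changes either way (edgeR adjusted p = 0.873). SPRED1 differed by -0.13 (95% interval -0.25 to -0.01, edgeR adjusted p = 0.322) and SPRED2 by -0.12 (-0.27 to 0.03, edgeR adjusted p = 0.511). SPRY1 and DUSP2 had log2 differences of 0.03 (-0.12 to 0.18) and 0.01 (-0.12 to 0.13). The intervals for DUSP1 (-0.55 to 0.19) and DUSP4 (-1.25 to 1.55) were wider. Of the 8 NK-92 markers, 4 were also called lower with DFO than with T003 and 0 higher. The granzyme gene GZMB averaged 243 ± 5.10 CPM with DFO and 298 ± 2.97 CPM with T003 (SD, n = 2 each; log2 -0.29, edgeR adjusted p = 0.00546). Perforin gene PRF1 (log2 -0.15, edgeR adjusted p = 0.0496), GNLY (-0.15, edgeR adjusted p = 0.0373) and IL2RB (-0.14, edgeR adjusted p = 0.0380) were the others. Of these marker calls, GZMB held in 14 of 17 alternatives, and the others in 4 to 8, with all of the others lost without any single library of the 2 groups. Their part in the DUSP5 difference was not tested.

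**Figure D3:**
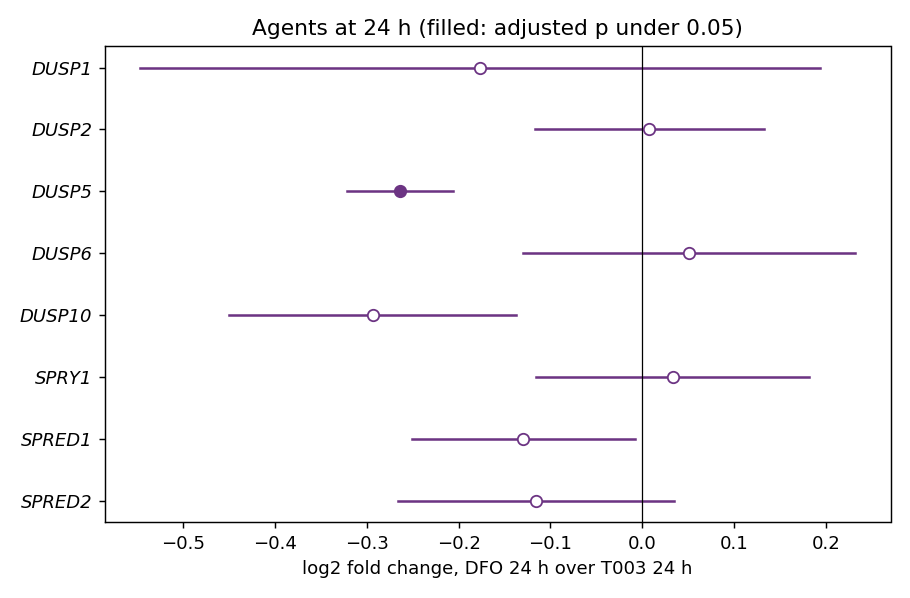
Log2 fold change of DFO 24 h over T003 24 h for the tested members other than DUSP4, whose interval is too wide for the axis, with lines for the 95% interval. The point of DUSP5, at -0.26, is the only filled one (edgeR adjusted p under 0.05), and DUSP10 at -0.29 has a wider interval.

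At 6 h no member passed the test with either agent, at a time when TFRC already stood at 361 and 345 CPM with DFO and 437 and 419 CPM with T003. Few genes of any kind did so in edgeR, with 0.0248% of all genes called for DFO (5 genes) and 0.0298% for T003 (6 genes). At an unadjusted p under 0.05 there were 0 members with DFO and 1 of 9 with T003. Of all tested genes, 12.4% with DFO and 7.53% with T003 were under that level. The 1 member was SPRED1, which had 21.6 and 22.6 CPM with T003 at 6 h (log2 0.14, edgeR adjusted p = 0.630). DESeq2 and limma-voom also called 0 members at 6 h. Of all tested genes, DESeq2 called 522 with DFO and 81 with T003, and limma-voom called 25 and 5. Apart from DUSP4, log2 values at 6 h ran from -0.16 to 0.09 with DFO and from -0.08 to 0.14 with T003. DUSP6 had 14.8 and 15.6 CPM with DFO and 15.8 and 16.6 CPM with T003 at 6 h, within the range of the untreated libraries. DUSP5 had 215 and 213 CPM with DFO and 219 and 226 CPM with T003, against 223 and 216 CPM in untreated cells. Both DFO libraries lay just below the untreated ones without a call (log2 -0.04, edgeR adjusted p = 0.599), and the T003 libraries overlapped them. SPRED1 had 21.5 and 21.1 CPM with DFO at 6 h, just above the untreated 20.8 and 19.2 CPM. DUSP10 had 10.6 and 11.3 CPM with DFO and 11.7 and 10.97 CPM with T003, all below its untreated libraries. SPRED2 had 23.4 and 21.9 CPM with DFO and 23.1 and 23.8 CPM with T003, and overlapped the untreated cells with DFO but not with T003. SPRY1 had 27.7 and 24.8 CPM with DFO and 26.7 and 26.2 CPM with T003, inside the untreated range of 28.0 and 24.6 CPM. Between DFO and T003 at 6 h, edgeR, DESeq2 and limma-voom called 0 members, edgeR called 0% of all genes (0 genes, with 1334 under an unadjusted p of 0.05, 14 called by DESeq2 and 1 by limma-voom), and 1 member, DUSP5, was under an unadjusted p of 0.05.

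Within each agent, 24 h was compared with 6 h, which does not use the untreated level. No untreated cells were taken at 6 h or 24 h, so time in culture and agent cannot be told apart here either. With DFO, DUSP6 was higher at 24 h than at 6 h (log2 0.73, SE 0.0830, edgeR adjusted p = 0.000289), as were SPRED1 (0.30, edgeR adjusted p = 0.00625), DUSP5 (0.21, edgeR adjusted p = 0.000571) and DUSP2 (0.22, edgeR adjusted p = 0.0337). These 4 calls stand against 5.29% of all genes called higher and 9.89% called in either direction. For DUSP2 the values were 49.4 and 54.0 CPM at 24 h against 43.8 and 45.1 CPM at 6 h of DFO, without overlap. In this comparison 24.8% of all tested genes were higher without overlap. The DUSP2 call was lost without DFO 24 h replicate 2 (edgeR adjusted p = 0.229), DFO 6 h replicate 1 (0.178) or replicate 2 (0.0643), or T003 6 h replicate 1 (0.0593) or replicate 2 (0.0515). Without DFO 24 h replicate 2 the count was 2, with SPRED1 at an edgeR adjusted p of 0.0576. With T003, DUSP6 (log2 0.59, edgeR adjusted p = 0.000845), DUSP5 (0.41, edgeR adjusted p = 5.82e-06), DUSP10 (0.40, edgeR adjusted p = 0.00337) and SPRED1 (0.38, edgeR adjusted p = 0.00117) were higher at 24 h than at 6 h. Of all genes, 7.55% were called higher and 13.5% in either direction. DUSP10 had 15.3 and 14.8 CPM at 24 h of T003, against 11.7 and 10.97 CPM at 6 h.

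The interaction of agent and time, which asks whether the departure of 24 h from 6 h differed between DFO and T003, was called for 0 members by edgeR and for 0.0199% of all genes (4 genes). DUSP5 had the smallest p (log2 -0.21, SE 0.0372, edgeR adjusted p = 0.148), and DUSP10 was at -0.24 (edgeR adjusted p = 0.497). These 2 members were under an unadjusted p of 0.05, as were 9.2% of all tested genes. DESeq2 called DUSP5 (adjusted p = 0.000105) among 188 genes, and limma-voom called 0 members and 19 genes.

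The other genes of the pathway were described from 10 lists that together held 111 genes, 95 of them tested. With DFO 12 rose and 7 fell at 24 h, and with T003 21 rose and 5 fell, so that 20% and 27.4% of those tested were called, where 6.7% of all tested genes were called with DFO and 12.5% with T003. Their pooled median log2 changes of 0.03 and 0.04 were nearer to 0 than those of the feedback genes (0.15 and 0.24), but lists differed. The 7 tested readouts of ERK activity had medians of 0.45 with DFO and 0.43 with T003. The 2 other MAPK phosphatases tested had 0.23 and 0.34, and SPRED3 alone had 0.26 and 0.22. All remaining lists had medians below those of the feedback genes with both agents. Without untreated replicate 2 or DFO 24 h replicate 2 the count that rose with DFO was 3, and without untreated replicate 2 or DFO 24 h replicate 1 the count that fell was 2. With T003, 11 rose without untreated replicate 2 or T003 24 h replicate 1. Of the 17 pathway genes taken by the naming rule and called with DFO, 4 (DUSP7, GAB3, RASA2 and KSR1) were called under every one of the 17 alternatives. Of the 23 called with T003, 11 were. Without untreated replicate 2, 13 of those 17 DFO calls and 11 of those 23 T003 calls were lost.

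Among the other MAPK phosphatases, DUSP7, which like DUSP6 acts on ERK in the cytoplasm, rose with both agents. It averaged 48.1 ± 1.01 CPM with DFO and 49.0 ± 0.117 CPM with T003 at 24 h, against 40.7 ± 0.903 CPM in untreated cells (SD, n = 2 each; edgeR adjusted p = 0.00236 with DFO and 0.00077 with T003). DUSP16, a JNK phosphatase, rose with T003 (log2 0.41, edgeR adjusted p = 0.0300), a call lost without any single library of the untreated or T003 24 h groups. Of 8 atypical phosphatases tested, DUSP11, which acts on RNA, rose with DFO (log2 0.18, edgeR adjusted p = 0.0292) and T003 (0.29, edgeR adjusted p = 0.00115), and the others were not called. The DFO call of DUSP11 was lost without either untreated library, either T003 6 h library or DFO 24 h replicate 2. SPRED3, the only other Sprouty or Spred gene tested, had log2 values of 0.26 with DFO and 0.22 with T003 and was not called.

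Upstream of RAF, 3 of 14 adaptor, exchange factor and RAS genes tested rose with DFO and 1 fell, while 3 rose and 3 fell with T003 (GAB3, SOS2 and RASGRP1). The adaptor GAB3 fell to 32.1 ± 0.670 CPM with DFO and 33.7 ± 0.462 CPM with T003, against 42.0 ± 1.12 CPM in untreated cells (SD, n = 2 each; log2 -0.39 and -0.32, edgeR adjusted p = 0.000351 and 0.000813). GRB2, the adaptor that brings the exchange factor SOS to receptors, RASGRP2 and RRAS2 rose with both agents, by log2 0.09, 0.16 and 0.19 with DFO and 0.14, 0.24 and 0.22 with T003. The DFO calls of all 3 were lost without untreated replicate 2, DFO 24 h replicate 1 or DFO 24 h replicate 2. Of 8 RAS GTPase-activating genes, RASA2 rose with DFO (log2 0.27, edgeR adjusted p = 0.00417) and T003 (0.23, edgeR adjusted p = 0.00513), RASA1 with DFO (0.29, edgeR adjusted p = 0.0327) and RASA4 with T003 (0.13, edgeR adjusted p = 0.0470). The T003 calls of RASA2 and RASA4 were both lost without untreated replicate 2 or T003 24 h replicate 1. The RASA1 call was lost without untreated replicate 1, untreated replicate 2 or DFO 24 h replicate 2. NF1, the gene of neurofibromin, averaged 76.0 ± 3.31 CPM with DFO and 75.9 ± 1.98 CPM with T003, against 73.7 ± 2.50 CPM in untreated cells, and was not called.

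Of 12 RAF, MEK and ERK kinases and scaffolds, 0 rose and 2 fell with DFO, and 1 rose and 0 fell with T003. Leaving out any single library left 1 of the DFO falls. The scaffold KSR1 fell to 182 ± 3.57 CPM with DFO, against 214 ± 4.57 CPM in untreated cells (SD, n = 2 each; log2 -0.24, edgeR adjusted p = 0.000594), and averaged 202 ± 5.12 CPM with T003. ARAF fell with DFO (log2 -0.11, edgeR adjusted p = 0.0468), a call that held in 4 of 17 alternatives, and BRAF rose with T003 (0.14, edgeR adjusted p = 0.0140). The BRAF call was lost without untreated replicate 2 or either T003 24 h library. Of 14 JNK and p38 genes, MAPK14, the gene of p38 alpha, rose with both agents (log2 0.16 with DFO and 0.17 with T003). MAPK8, the gene of JNK1, fell with both (-0.27 and -0.43), as did its activator MAP3K1 (-0.17 and -0.18). The MAP3K1 call with DFO (edgeR adjusted p = 0.0495) held in 8 of 17 alternatives and ended without either library of the untreated, DFO 6 h, T003 6 h or DFO 24 h groups. With T003 it ended without untreated replicate 1, untreated replicate 2 or T003 24 h replicate 1. MAPK14 and MAPK8 were not called with DFO without untreated replicate 2 or DFO 24 h replicate 1, nor was MAPK14 without untreated replicate 1, and with T003 MAPK14 was not called without T003 24 h replicate 2.

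Downstream, 1 of 10 kinases rose with DFO and 3 with T003. RPS6KA5 rose with both (log2 0.24 with DFO and 0.32 with T003), and MKNK2 (0.17) and MAPKAPK5 (0.11) rose with T003. The DFO call of RPS6KA5 was lost without untreated replicate 2 or DFO 24 h replicate 2. Of 20 transcription factors, 2 rose (JUNB and ETV5) and 2 fell (ETS2 and ELK3) with DFO, and 6 rose with T003. The 2 that fell with DFO became 0 without either untreated or either DFO 24 h library and 1 without any other single library. The 2 that rose with DFO became 0 without untreated replicate 2 or either DFO 24 h library and 4 without untreated replicate 1, and the 6 that rose with T003 became 1 without untreated replicate 2. JUNB rose with DFO (log2 0.38, edgeR adjusted p = 0.0206) and T003 (0.43, edgeR adjusted p = 0.00581), while ETV1 (0.82, edgeR adjusted p = 0.00388), ETS1 (0.12, edgeR adjusted p = 0.00406) and FOSL2 (0.16, edgeR adjusted p = 0.00482) were called with T003. Of 7 tested genes that serve as readouts of ERK activity, MYC rose to 657 ± 32.8 CPM with DFO and 723 ± 10.8 CPM with T003, against 556 ± 31.8 CPM in untreated cells (SD, n = 2 each). ETV5, an ETS factor, rose by 0.45 with DFO (edgeR adjusted p = 0.0283) and 0.47 with T003 (edgeR adjusted p = 0.0137) on the log2 scale, and PHLDA1 by 0.56 with T003 (edgeR adjusted p = 0.00355). Without untreated replicate 2 the calls of JUNB and ETV5 with both agents, MYC with DFO, and ETV1 and FOSL2 with T003 were lost. The immediate-early genes FOS and EGR1 were low and not called, with FOS at 1.69 CPM with DFO and 1.41 CPM with T003, against 1.03 CPM in untreated cells.

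**Figure D4:**
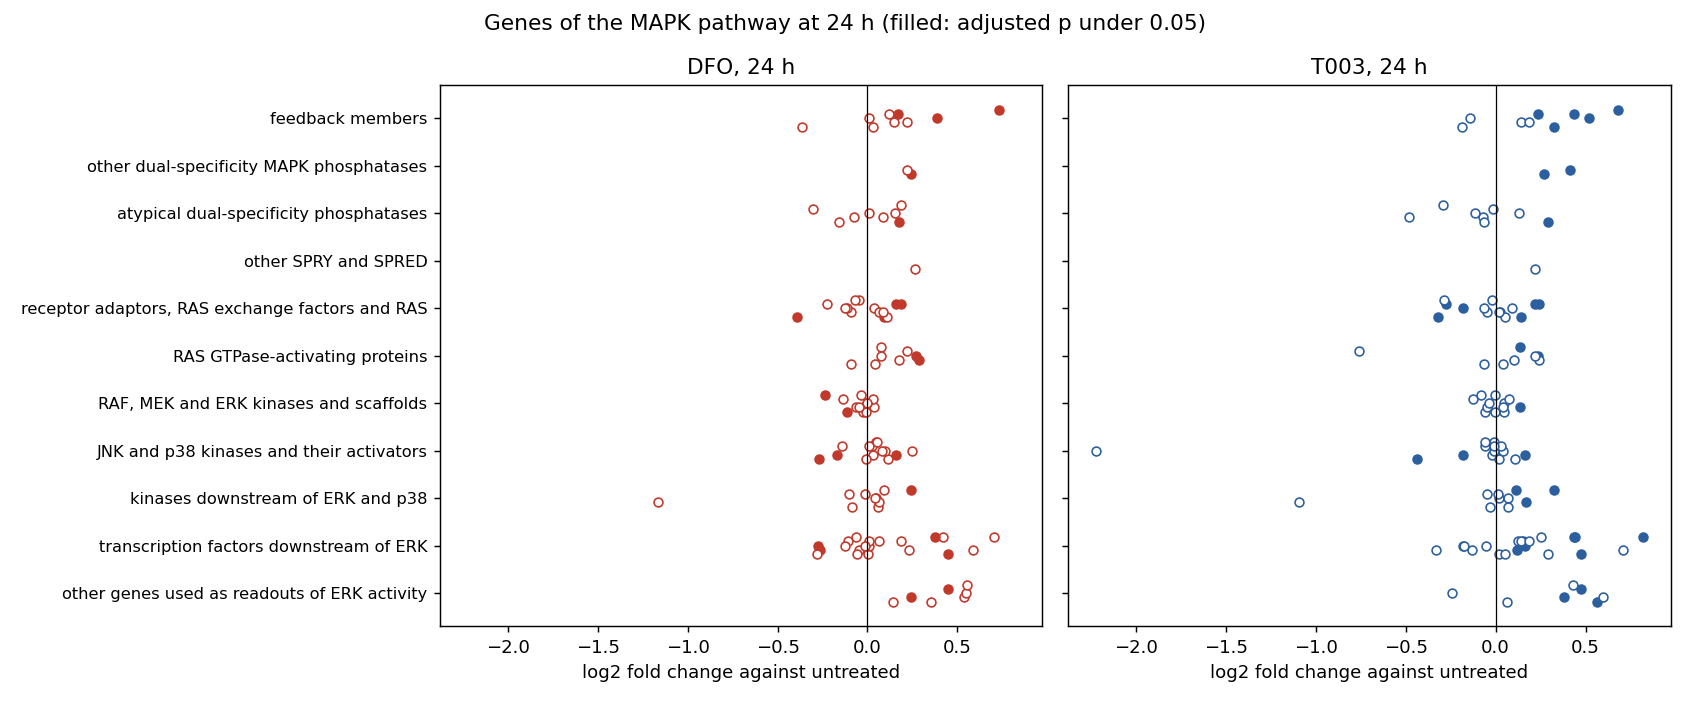
Log2 fold change at 24 h over untreated cells for the feedback genes and for the tested genes of each pathway list, with DFO on the left and T003 on the right, each point 1 gene and filled points for an edgeR adjusted p under 0.05. The feedback genes reach 0.73 with DFO and 0.68 with T003, and of the RAF, MEK and ERK genes KSR1, at -0.24 with DFO, is the farthest from 0 among filled points.

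Between DFO and T003 at 24 h, 4 of the 95 tested pathway genes were called, all lower with DFO. KSR1 (log2 -0.15, edgeR adjusted p = 0.0314), ETS1 (-0.17, edgeR adjusted p = 0.00787), FOSL2 (-0.17, edgeR adjusted p = 0.0250) and JUN (-0.25, edgeR adjusted p = 0.0386) made up this count, and JUN was named after its values were seen. Without any single library of the 4 compared, 0 of them were called.

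For the 3 members with the smallest p, the genes whose log2 levels followed them most closely over the 10 libraries were searched among the 10208 genes that averaged a log2 CPM of 2 or more. The Pearson correlations are descriptions, since the 24 h libraries stand apart from the others and the libraries share their treatments. DUSP5 was followed by ZDHHC5 (0.988), RAB8A (0.987) and SND1 (0.986). SPRED1 was followed by RRP1B (0.992), the metal transporter gene SLC39A14 (0.987) and SLC25A30 (0.985). DUSP6 was followed by SLA (0.992), MTMR10 and the SRC family kinase LYN (both 0.991).

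Of the other cell markers, PECAM1, known from endothelium and also from leukocytes, was higher with T003. It averaged 1.38 ± 0.182 CPM with DFO and 2.54 ± 1.01 CPM with T003 at 24 h, against 0.904 ± 0.0197 CPM in untreated cells (SD, n = 2 each; edgeR adjusted p = 0.00871 with T003). The call was lost without untreated replicate 1, untreated replicate 2 or T003 24 h replicate 1. The 5 fibroblast and endothelial genes, of which 2 were at 0 in every library, summed to 1.97 to 2.33 CPM with DFO and 2.47 to 3.78 CPM with T003, against 1.56 to 1.77 CPM in untreated cells. Their part in the levels of the feedback genes was not tested. The erythroid markers summed to at most 0.0296 CPM with DFO and 0 CPM with T003 at 24 h, against at most 0.0469 CPM in untreated cells.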

How the data were processed

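PolyA RNA of 10 libraries was sequenced as paired reads of 101 bp. According to the design text and the submitters' processing notes, fastp 0.21.0 did the trimming, HISAT2 2.2.1 the mapping to hg38 and StringTie 2.1.6 the counting on the RefSeq annotation. The authors deposited estimated counts per gene symbol, which are whole numbers and not normalized. StringTie estimates these from coverage, so floors cover counting error only. The treatment of strand was not given in the sources used here, so antisense reads cannot be told apart. Depth was 107117892 to 143575614 counts per library. Of 54628 symbols, 51616 matched RefSeq GRCh38.p14, used for positions.

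From these counts, edgeR 4.0.16 in R 4.3.3 (TMM scaling, filterByExpr with a minimum count of 10, glmQLFit and glmQLFTest) fitted 1 model with group as its term over all 10 libraries, with 5 residual degrees of freedom. Benjamini-Hochberg adjustment covered 20125 genes in each of 9 comparisons. SE is the log2 fold change over the square root of F. Separate cultures are stated in no label, so a p-value measures the spread between these libraries alone, and that may be technical. Exact permutation of 2 against 2 cannot go below p = 0.333.

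Alternatives were RLE scaling, all genes kept, a minimum of 1 CPM in 2 libraries, DESeq2 1.42.0, limma-voom (limma 3.58.1), the replicate number as a block, the compared groups alone, and leaving out each library. The members and lists were chosen with earlier results of these data known. Named were all members, up to 4 called genes of each pathway list by smallest p, markers averaging 1 CPM in any group (given here in part), TFRC, and the 3 closest genes to each of 3 members. NF1, SPRED3, FOS, EGR1, JUN, SOS2, RASGRP1, ETS2 and ELK3 fall outside this rule and were named after their values were seen.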

Additional observations from a re-analysis of the deposited data

Results flagged for a closer look

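The comparisons of the agents and of the times within an agent picked out 9 values, each because the difference itself passed edgeR's test. Between agents at 24 h, the log2 fold change of DFO over T003 was -0.26 for DUSP5. Of 24 h over 6 h of DFO, it was 0.22 for DUSP2, 0.21 for DUSP5, 0.73 for DUSP6 and 0.30 for SPRED1. Of 24 h over 6 h of T003, it was 0.41 for DUSP5, 0.59 for DUSP6, 0.40 for DUSP10 and 0.38 for SPRED1. Groups of 2 libraries are too small for a search for single libraries that stand apart.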

How the results depend on the processing

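Over 17 alternatives, DUSP5, DUSP6 and SPRED1 were called higher at 24 h with both agents in every one, and DUSP5 was lower with DFO than with T003 in every one (log2 -0.28 to -0.24). DUSP6 ranged from 0.60 to 0.88 with DFO and from 0.55 to 0.82 with T003. Leaving out each library in turn gave 3 to 5 members called for T003 against untreated at 24 h, where all libraries gave 5, and 2 to 5 for DFO at 24 h against 6 h, where all gave 4. Between agents at 24 h, 2 members were called with the filter of 1 CPM and 2 with limma-voom, against 1. For the interaction DESeq2 called 1 member among 188 genes, where edgeR called 0 members among 4 genes. A replicate block gave, at 24 h, 3 members called with DFO, 4 with T003 (SPRED2 was lost, at an adjusted p of 0.0663) and 1 between agents, and for DFO at 24 h against 6 h it gave 3 (DUSP2 was lost, at 0.0502). Deviations of same-numbered libraries correlated between -0.344 and 0.325, so the numbers were not taken as pairs. Crossed numbers, added after the data were seen, were fitted as a block in the compared groups alone. They called 988 genes and 3 members for DFO at 24 h against untreated and 219 genes and 1 member between agents at 24 h. The compared groups alone without a block called 851 genes and 3 members, and 55 genes and 1 member. With 46 of 1368 fold changes of members the sign turned, all of them uncalled in both fits. Over all alternatives 18 calls of members ended and 13 were gained. The causes were not tested. Depth limits DUSP4 and SPRY2. With 2 libraries a group, losing 1 leaves a lone library that is assumed to vary like the other groups.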
